A study of Homo sapiens with 17 samples.

Results

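The genes described here encode the human aminoacyl-tRNA synthetases, the enzymes that join each amino acid to its transfer RNA. They were chosen by symbol as 36 of the 58870 entries of the deposited count table. The rule used no measured value, although it was set with earlier results of these data known. Of the 36 genes, 16 encode mitochondrial enzymes, whose symbols end in 2, and the other 20 were grouped as cytosolic. GARS and KARS, for glycine and lysine, are in the cytosolic group although each is known to supply both compartments. All 36 genes passed the filter on low counts, which left 15365 genes for testing. The cells were MDA-MB-231, an established human line of triple-negative breast cancer that the labels class as mesenchymal and basal B. Every group received TRAIL, a ligand of death receptors that can start apoptosis, at 45 nM, which the labels call a suboptimal dose. The groups were 0, 1, 3, 6, 12 and 24 h of TRAIL, in 17 libraries: 2 at 1 h and 3 at every other time. All libraries, those at 0 h included, carry the same treatment label, and no later library without TRAIL was analysed, so that an effect of TRAIL and one of time in culture cannot be told apart. The labels do not say that libraries of 1 time came from separate cultures, and the p-values therefore measure only the spread between these libraries, which may be technical.

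Each synthetase recognises 1 amino acid and its transfer RNAs and makes the charged transfer RNA that the ribosome uses. The enzymes fall into class I and class II by the fold of their catalytic domain. Several of the cytosolic enzymes are held together with the scaffold proteins AIMP1, AIMP2 and EEF1E1 in the multisynthetase complex, while the mitochondrial enzymes are made from nuclear genes and imported to translate the mRNAs of the mitochondrial genome. When amino acids run short or the endoplasmic reticulum is stressed, the transcription factor ATF4 is known to raise many cytosolic synthetase genes together with genes of amino acid uptake and synthesis. WARS, the tryptophan enzyme, is also known as a gene induced by interferon.

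ATF4, as a dimer with a C/EBP protein, binds a composite element whose core reads TGATGNAA. RefSeq promoter sequences (GRCh38.p14, 250 bases before to 50 bases after the annotated start) were matched for 30 of the 36 genes, and those of DARS, LARS, VARS, YARS, AARS2 and VARS2 were not among them. Searched on both strands, the core was found in 7 of the 30 promoters, against 3.62% of 35116 human promoters of the same length. The 7 windows are shown because 6 of them belong to cytosolic genes that are known, as background, to respond to ATF4. The core is in capitals, each window is written 5′ to 3′ on the strand of its gene, and a core on the opposite strand appears as its reverse complement.
AARS (chr16:70289675-70289704, minus strand): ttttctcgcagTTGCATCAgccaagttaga
CARS (chr11:3057407-3057436, minus strand): cggggcggcggTTGCATCAgattctaggaa
IARS (chr9:92293692-92293721, minus strand): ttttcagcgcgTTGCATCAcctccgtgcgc
MARS (chr12:57488053-57488082, plus strand): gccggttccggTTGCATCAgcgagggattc
NARS (chr18:57621804-57621833, minus strand): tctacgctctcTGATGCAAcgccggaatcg
TARS (chr5:33440956-33440985, plus strand): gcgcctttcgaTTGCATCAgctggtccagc
YARS2 (chr12:32756076-32756105, minus strand): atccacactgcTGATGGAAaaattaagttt
The 6 cytosolic windows carry the same 8 letters, in 5 of them on the strand opposite to the gene, whereas the window of YARS2 has another base at the free position. The 8 letters begin between 13 bases before and 15 bases after the start in CARS, IARS, MARS, NARS and TARS, and 187 bases before it in AARS. A further motif, the E-box CACGTG, which MYC and related factors are known to bind, was found in 4 of the 30 promoters (IARS, CARS2, EARS2 and MARS2), against 7.26% of all promoters, and overlapped none of the cores. At 3 h against 0 h the log2 fold change was 0.54 in MARS2, 0.19 in CARS2, -0.12 in EARS2 and -0.22 in IARS, and a link of these values with the motif was not tested. The E-box began 3 bases before the start in CARS2, 15 in EARS2 and 186 in IARS, and these genes were not called at 3 h. A place near the start is thus not particular to MARS2. The E-box of MARS2, shown because this gene had the clearest early difference below, began 11 bases before its start:
MARS2 (chr2:197705347-197705374, plus strand): tgcgcctctcaCACGTGctgtcagaacg

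Total counts per library ran from 13731520 to 19234924. The 7 markers of basal B cells were all present (VIM at 2490 to 3720 CPM, counts relative to each scaled library total), and ESR1 and PGR, which encode the receptors absent from this tumour type, stayed below 0.15 CPM. Of the other luminal and epithelial markers, FOXA1 had at most 1 count, CDH1 reached 1.01 CPM, and KRT19 (298 to 488 CPM), EPCAM (13.1 to 19.3) and GATA3 (6.97 to 12.1) were present. The summed level of the 7 was 453 to 485 CPM in the 0 h libraries, 320 to 341 after 6 h and 360 to 401 after 24 h, and its part in the results was not tested. Of 7 markers of leukocytes, endothelium and fibroblasts, 4 stayed below 1 CPM in every library, CD3E at 0 counts, and their summed level lay between 10.5 and 19.9 CPM. A pair of library measures differed between times. The share of counts from mRNAs of the mitochondrial genome was 6.75% ± 1.46 in the 0 h libraries and 8.59% ± 0.521 in those at 3 h. It was 4.49% ± 0.83 after 6 h and 3.90% ± 0.24 after 24 h (SD, n = 3 each). The slope of log2 level on log2 transcript length over all genes averaged -0.036 in the 0 h libraries, -0.096 after 3 h, 0.066 after 6 h and 0.094 after 24 h, so that longer transcripts had relatively more counts at 6 and 24 h than at 3 h. Many results below are therefore also given after each library was corrected for its trend with length and GC content. Replicates 2 and 3 differed least at 6 h and at 24 h, with a chi-square per gene of 1.55 and 1.68 against 3.86 to 14.6 in the 14 other pairs of 1 time. Each was counted as a library of its own, and counts with these pairs averaged stand among the alternatives.

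The cytosolic enzymes were far more highly expressed than the mitochondrial ones. Divided by transcript length, TARS, for threonine, had the highest level at 0 h, 248.8 ± 10.6 CPM per kb (SD, n = 3), above every other member by far more than the spread. GARS, SARS and KARS followed with 114 ± 1.98, 101 ± 6.47 and 91.1 ± 3.74 CPM per kb, and the lowest cytosolic gene was FARSB, the beta subunit of the phenylalanine enzyme, at 27.9 ± 1.69. FARSA, the alpha subunit of the same enzyme, stood at 63.4 ± 2.34 CPM per kb, although the subunits form a tetramer in equal numbers. Among the mitochondrial genes IARS2, for isoleucine, was highest at 44.5 ± 3.61 CPM per kb, a level within the cytosolic range. CARS2 came next at 27.1 ± 2.53, within the spread of FARSB, and the other 14 mitochondrial genes lay between 2.697 (PARS2, for proline) and 16.6 CPM per kb (EARS2, for glutamate). In this order the mean ± SD intervals of SARS and KARS touch, while that of GARS lies above both.

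Over the 24 h the family changed little in size. The fold between the highest and the lowest time mean had a median of 1.23 over the 36 genes, against 1.43 over all genes tested, and 35 of the 36 (97.2%) stayed below 1.5-fold, against 57.3% of all genes. PARS2, at 1.65-fold, was the exception, and at 4.33 to 8.29 CPM it was also the lowest expressed member. The family and all genes tested were not matched for level in these folds. Every member had at least 65 counts in each library, while some of all genes tested had no counts at a whole time. A gene with few counts can show a large fold from counting noise. In a test of all times together, 28 of the 36 changed at an adjusted p below 0.05 (edgeR's quasi-likelihood test with Benjamini-Hochberg adjustment over all genes tested, the rule for every call below), beside 64.2% of all genes. The 28 comprised 19 of the 20 cytosolic genes, all but QARS, and 9 of the 16 mitochondrial genes. Mitochondrial genes had fewer counts, 65 to 994 per library outside IARS2, than cytosolic ones.

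**Figure D1:**
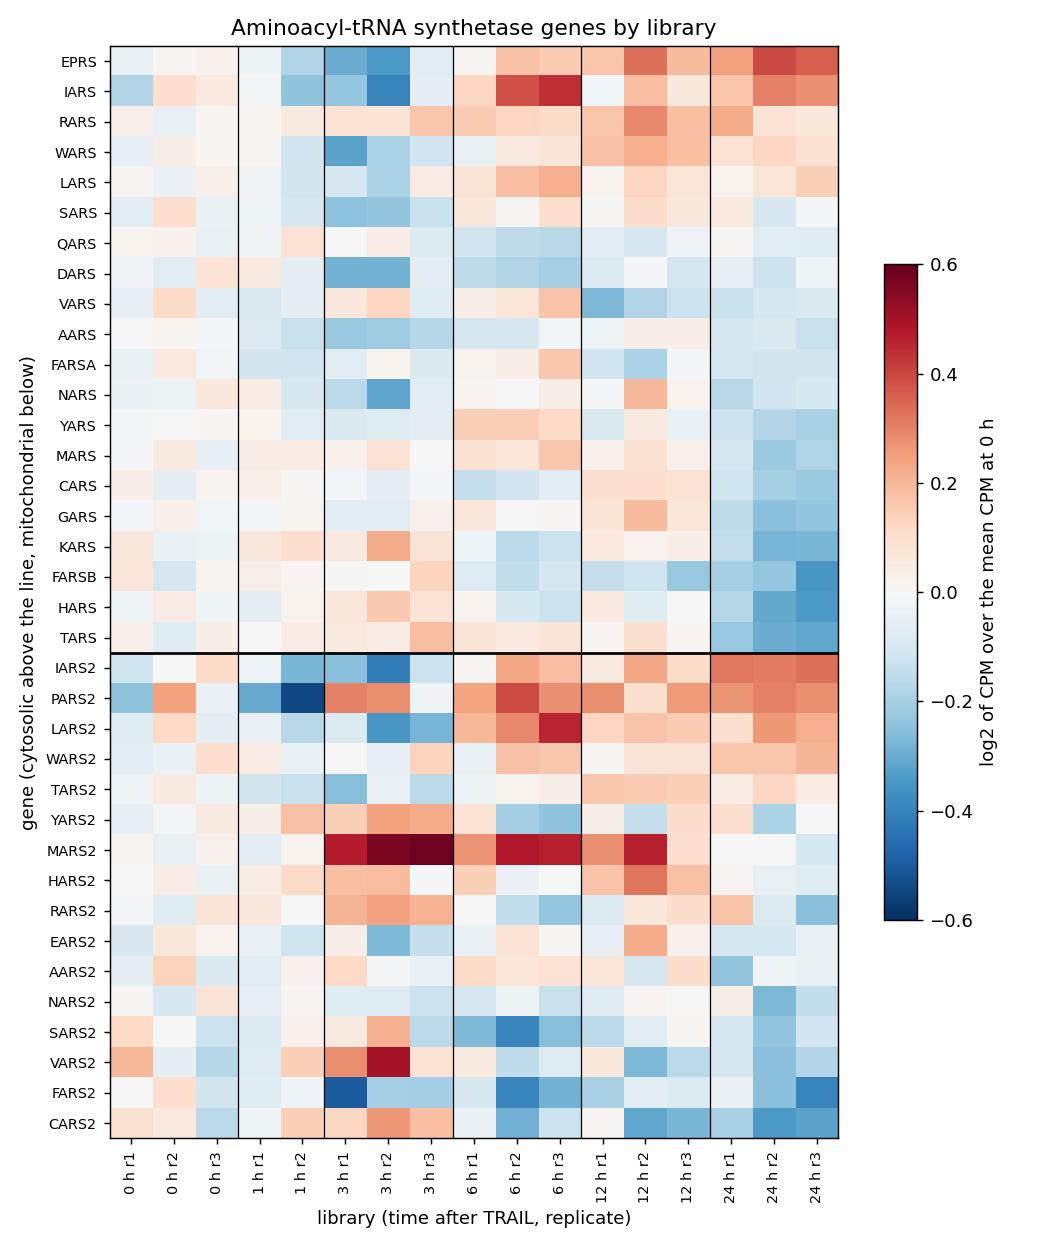
Each row is 1 synthetase gene and each column 1 library, ordered by time and replicate; colour gives the log2 of its CPM over the gene's mean CPM at 0 h, with cytosolic genes above the black line and mitochondrial ones below, each block sorted by the log2 fold change at 24 h. EPRS, IARS and IARS2 are blue at 3 h and red at 24 h, MARS2 is red from 3 h to 12 h, and TARS, HARS and FARSB are blue at 24 h.

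Against 0 h, the share of the family called was near the background of all genes at 3, 12 and 24 h and below it at 6 h. At 1 h, 0 of the 36 were called by edgeR and 0 by DESeq2, with 1 at an unadjusted p below 0.05, beside 0.312% of all genes called (0.26% higher and 0.0521% lower) and 5.15% at an unadjusted p below 0.05. That gene was PARS2, with a log2 fold change of -0.42 and an adjusted p of 0.749. At 3 h, 7 genes (19.4%) were called, beside 17.7% of all genes, with 1 higher (background 9.04%) and 6 lower (8.71%). At 6 h, 7 (19.4%) were called, beside 30.1%, with 4 higher (16.9%) and 3 lower (13.2%). At 12 h, 5 (13.9%) were called, beside 12.4%, with 4 higher (5.96%) and 1 lower (6.48%). At 24 h, 11 (30.6%) were called, beside 35.1%, with 2 higher (18%) and 9 lower (17.1%). These comparisons share the 0 h libraries. The median log2 fold change of the 36 genes was -0.02, -0.02, 0.03, 0.04 and -0.09 at 1, 3, 6, 12 and 24 h, while that of all genes tested stayed between -0.02 and 0.00. When libraries were scaled by their totals alone, the calls at 24 h split into 8 higher and 4 lower in place of 2 and 9, so the balance of directions at 24 h rests on the composition scaling, without which the median of all genes stood at 0.07.

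The correction for length and GC content added calls in both directions. It gave 4 higher and 9 lower at 3 h, with RARS (0.12), TARS (0.10) and VARS2 (0.33) added to the higher genes and NARS (-0.15), LARS2 (-0.19) and FARS2 (-0.33) to the lower (adjusted p 0.0105 to 0.0416). At 6 h it gave 8 higher and 4 lower, with FARSA (0.19), RARS (0.15), MARS (0.12) and PARS2 (0.35) added as higher and AARS (-0.10) and FARSB (-0.18) as lower (adjusted p 0.00574 to 0.0458). At 12 h it gave 5 higher and 2 lower, with TARS2 (0.17) added as higher and DARS (-0.14) and FARSB (-0.26) as lower (adjusted p 0.00101 to 0.0411). At 24 h it gave 4 higher and 11 lower. The added higher genes were RARS (0.12) and PARS2 (0.33), and the added lower ones AARS (-0.15), NARS (-0.20) and LARS (-0.10, against 0.08 without the correction), with adjusted p 0.00188 to 0.0465. The share of all genes called under the correction is not set beside the corrected counts, here or below. An added call is therefore not read as a trait of the family.

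**Figure D2:**
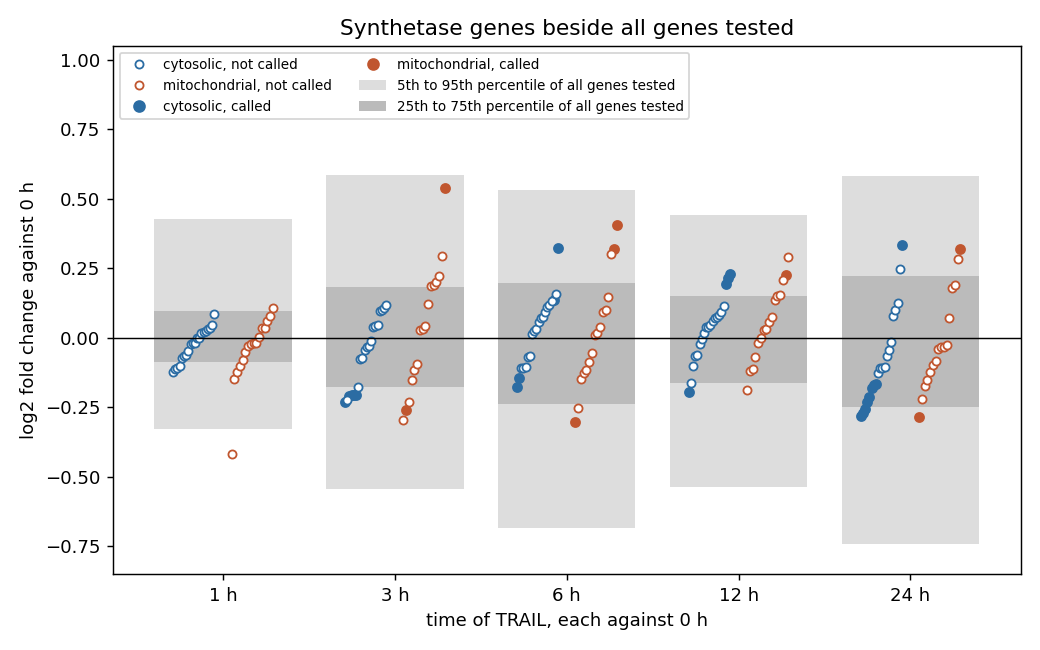
Points give the log2 fold change of each synthetase gene at 5 times against 0 h, cytosolic in blue and mitochondrial in orange, filled where called; the grey bars span the 5th to 95th and the 25th to 75th percentiles of all genes tested. From 3 h on all 36 genes lie inside the 5th to 95th percentile band, with MARS2 at the top at 3 h and 6 h.

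At 3 h MARS2 rose and 6 genes fell. MARS2, the mitochondrial methionine enzyme (chromosome 2, 197705369 to 197708387, plus strand, GENCODE 29 on GRCh38; a gene whose main transcript is a single exon), had 11.3, 10.8 and 11.4 CPM in the 0 h libraries and 10.7 and 11.3 at 1 h. It then had 15.5, 16.5 and 16.8 CPM at 3 h. The 3 libraries at 3 h lay above all 5 earlier ones, with a log2 fold change of 0.54 (SE 0.0976, adjusted p = 0.000849) against 0 h and 0.56 (adjusted p = 0.00386) against 1 h. The call against 0 h held in all 27 alternatives, and that against 1 h in 26, the exception being without replicate 1 at 1 h (0.52, adjusted p = 0.0789). MARS, which charges methionine in the cytosol and in the multisynthetase complex, stood at 0.04 (adjusted p = 0.642) at 3 h.

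The 6 genes that fell at 3 h did so by 0.20 to 0.26 on the log2 scale, and all but DARS had 3 h libraries wholly below those at 0 h. AARS, for alanine, went from 128, 129.8 and 128 CPM at 0 h to 109.8, 111 and 114 at 3 h (-0.20, SE 0.0486, adjusted p = 0.0072), and this call held in all 27 alternatives. EPRS, a single protein that charges both glutamate and proline, went from 186, 192 and 194 CPM to 155, 150.2 and 182 (-0.23, SE 0.0727, adjusted p = 0.0334). The third library at 3 h was thus much nearer to 0 h than the others. IARS2 fell by 0.26 on the log2 scale (SE 0.082, adjusted p = 0.0337), WARS by 0.21 (SE 0.0585, adjusted p = 0.0194), SARS, for serine, by 0.20 (SE 0.0592, adjusted p = 0.022) and DARS, for aspartate, by 0.20 (adjusted p = 0.0312). These are calls near the threshold that rested on single libraries. Without 0 h replicate 2, 0 h replicate 3, 3 h replicate 1 or 3 h replicate 2, only 2 genes were called lower in each case; the adjusted p of EPRS was then 0.0911 to 0.156 and that of IARS2 0.0811 to 0.167. SARS was lost without 0 h replicate 2 or either of the same 3 h libraries (0.0762 to 0.121), WARS without 0 h replicate 2 or 3 or 3 h replicate 1 (0.0663 to 0.116), and DARS without 0 h replicate 3 or 3 h replicate 1 or 2 (0.13 to 0.149).

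At 6 h the higher genes were MARS2, IARS, LARS2 and YARS, and the lower ones SARS2, DARS and QARS. MARS2 was still raised, at 13.5, 15.6 and 15.4 CPM, and its 3 libraries lay above all of those at 0 h (0.41, SE 0.0965, adjusted p = 0.00415, called in all 27 alternatives). LARS2, the mitochondrial leucine enzyme, had 37.2, 42.5 and 37.6 CPM at 0 h and 44.9, 47.8 and 53.6 at 6 h (0.32, SE 0.0823, adjusted p = 0.00705). The groups did not overlap, though the first 6 h library was close to the highest at 0 h, and the call was lost without 6 h replicate 3 (0.24, adjusted p = 0.0616). IARS, the cytosolic isoleucine enzyme and a member of the complex, had 223, 270.4 and 263 CPM at 0 h and 275, 329.6 and 342 at 6 h (0.32, SE 0.0984, adjusted p = 0.0199). The first replicate was the lowest at both times, and the call was lost without 0 h replicate 1, 6 h replicate 2 or 6 h replicate 3 (adjusted p 0.0769 to 0.104), or when replicates 2 and 3 were averaged (0.26, adjusted p = 0.113). Without those same 3 libraries in turn, 2, 2 and 1 genes of the family were called higher and 0, 0 and 1 lower.

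After the correction for length and GC content, IARS stood at 0.20 at 6 h and remained called, as did LARS2 at 0.22. YARS, for tyrosine, rose by only 0.14 (adjusted p = 0.0422), and 14 of the 27 alternatives lost that call. SARS2, the mitochondrial serine enzyme, had 28.9, 26.6 and 24.3 CPM at 0 h and 22.1, 20.2 and 22.3 at 6 h (-0.30, SE 0.0919, adjusted p = 0.0179). It was not called after the correction (-0.15, adjusted p = 0.112), nor without 0 h replicate 1 (-0.24, adjusted p = 0.102) or 6 h replicate 2 (-0.26, adjusted p = 0.0836). DARS fell by 0.18 (adjusted p = 0.0387) and QARS, for glutamine, by 0.15 (adjusted p = 0.0395), and each lost its call in 7 of the 27 alternatives. The partners for the same amino acids in the other compartment were not called: LARS stood at 0.16 (adjusted p = 0.0562) and IARS2 at 0.15 (adjusted p = 0.176).

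The interval from 3 h to 6 h held the largest number of differences between neighbouring times. Of the 36 genes, 19 (52.8%) were called, beside 43.2% of all genes, with 10 higher (background 22.9%) and 9 lower (20.3%). LARS2 had 37.0, 30.7 and 32.3 CPM at 3 h, all below its 44.9 to 53.6 at 6 h (0.55, SE 0.0844, adjusted p = 9.3e-05). IARS had 214, 191 and 243 CPM at 3 h against 275 to 342 at 6 h (0.55, SE 0.0991, adjusted p = 0.000386). IARS2 moved by 0.41 (adjusted p = 0.000632) and EPRS by 0.35 (adjusted p = 0.000831). In each of these 4 genes the 3 libraries at 6 h lay above the 3 at 3 h, and each call held in all 27 alternatives. SARS, WARS, YARS, LARS, NARS and AARS were also higher, by 0.14 to 0.26. The 9 lower genes were VARS2, RARS2, SARS2, CARS2, YARS2, KARS, HARS, FARSB and QARS, at -0.35 to -0.13, so that 5 of them encode mitochondrial enzymes. Without 6 h replicate 2 or 6 h replicate 3, 4 genes were called lower in place of 9. Of the 19 calls 10 held in all 27 alternatives, while AARS, NARS, FARSB, HARS, QARS, VARS2 and YARS2 each lost theirs without at least 1 of 3 h replicates 1, 2 and 3, 6 h replicates 2 and 3, and 24 h replicates 2 and 3 (adjusted p 0.0503 to 0.158).

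The direction between 3 h and 6 h went with transcript length. Over the 36 genes the log2 fold change and log2 length had a Pearson r of 0.55 and a Spearman rho of 0.47, and over all genes tested 0.32 and 0.45; genes in the same libraries are not independent, and no p is given. The longest transcripts, those of EPRS (5014 bases), LARS (4766), LARS2 (4744) and IARS (4656), all rose. Short transcripts lay on both sides: those of SARS2 (1630 bases), RARS2 (1818) and CARS2 (1879) fell, while FARS2 (1692 bases, 0.04) and EARS2 (1709 bases, 0.13) were not called. After the correction for length and GC content r was 0.19, and 19 genes were called, 11 higher and 8 lower. EPRS then stood at 0.15 (adjusted p = 0.00357), IARS at 0.37, IARS2 at 0.30 and LARS2 at 0.41, all called. LARS was no longer called (0.03, adjusted p = 0.5), nor were AARS (0.07, adjusted p = 0.139) and SARS2 (-0.14, adjusted p = 0.123). FARSA (0.25, adjusted p = 0.000577), EARS2 (0.29, adjusted p = 0.0215) and TARS2 (0.17, adjusted p = 0.026) were called higher in their place. SARS, short at 1882 bases but higher at 6 h, moved away from 0, from 0.26 to 0.37 (adjusted p = 1.13e-05).

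**Figure D3:**
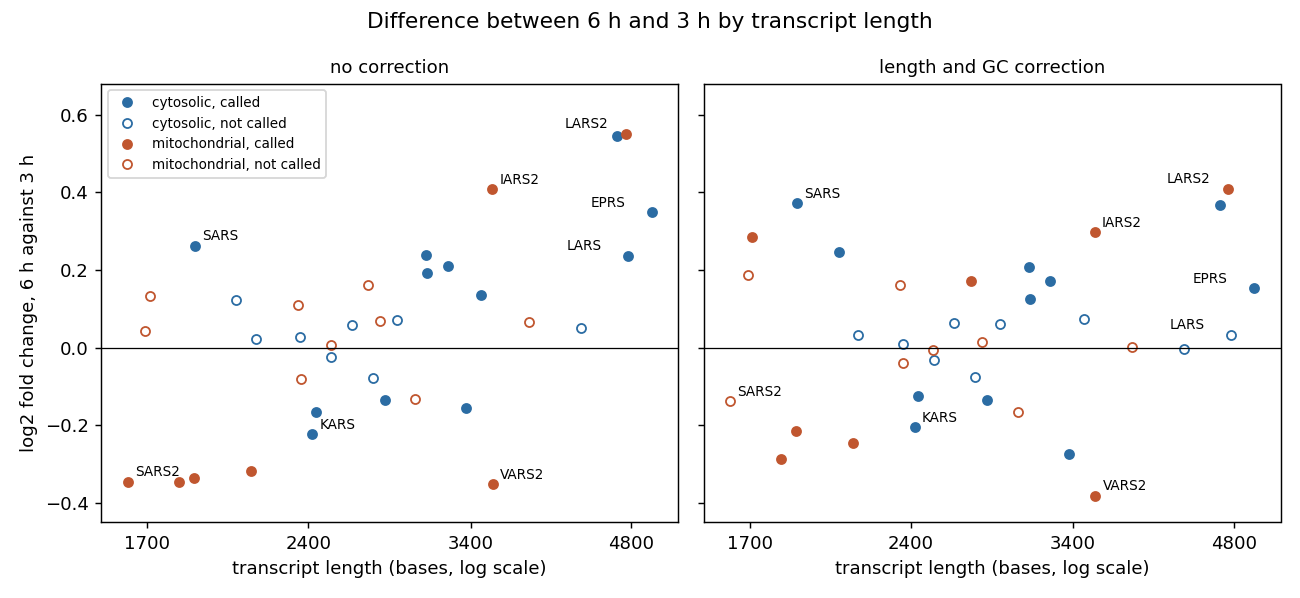
Log2 fold change of each synthetase gene between 3 h and 6 h (vertical axis) against the length of its main transcript in bases on a log axis, without correction on the left and with each library corrected for length and GC content on the right; filled points are called genes. On the left the 4 longest transcripts lie above 0 and the short ones on both sides, while on the right LARS and EPRS lie nearer to 0 and SARS is among the highest.

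The 13 cytosolic genes known as background to respond to ATF4 and the other 7 differed in their counts in this interval. Of the 13 (AARS, CARS, EPRS, GARS, IARS, LARS, MARS, NARS, SARS, TARS, VARS, WARS and YARS), 8 were called higher and 0 lower in the later of these times, beside 22.9% and 20.3% of all genes, with a median of 0.19. Of the other 7, 0 were higher and 4 lower, with a median of -0.13. The first group also has the longer transcripts, with a median of 3099 bases against 2421, and after the correction for length and GC content the counts were 6 higher and 0 lower (median 0.07) against 1 higher and 4 lower (median -0.13). Over the 27 alternatives 6 to 9 of the 13 were called higher and 1 to 4 of the 7 lower, with 2 lower without 3 h replicate 1 or 2 and 1 lower without 6 h replicate 2 or 3. The difference between the groups was not tested. Of the 6 cytosolic genes with the core shown above, IARS, NARS and AARS were called higher, and MARS (0.07), TARS (-0.03) and CARS (-0.08) were not called. YARS2, which also holds a core, was lower (-0.32, adjusted p = 0.0108).

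At 12 h, 5 genes differed from 0 h, all by small amounts. RARS, the arginine enzyme of the complex, had 149, 142 and 148 CPM at 0 h and 164, 179 and 166 at 12 h (0.22, SE 0.0547, adjusted p = 0.0145). WARS had 119, 126 and 124 CPM at 0 h and 139, 143 and 139.7 at 12 h (0.19, SE 0.0576, adjusted p = 0.0341). The 12 h libraries lay above those at 0 h in both genes. EPRS stood at 0.23 (adjusted p = 0.0405), HARS2, the mitochondrial histidine enzyme, at 0.23 (adjusted p = 0.0488), and VARS, for valine, fell by 0.19 (adjusted p = 0.0481). After the correction for length and GC content EPRS stood at 0.12 (adjusted p = 0.04) and VARS was not called (-0.11, adjusted p = 0.0826). None of the 5 was called in all 27 alternatives. RARS was lost only without 0 h replicate 2 (0.19, adjusted p = 0.0635) or 12 h replicate 2 (0.17, adjusted p = 0.0959), and without either of these libraries 0 genes of the family were called in either direction. Without 0 h replicate 1 or 3, 1 gene was called higher, and without 3 h replicate 1, 6 h replicate 3, 12 h replicate 1 or 3 or 24 h replicate 3, 2 were. WARS was lost without any 1 of the 0 h or 12 h libraries (adjusted p 0.0594 to 0.141), EPRS without 8 single libraries (0.0503 to 0.202), HARS2 in 18 of the 27 alternatives and VARS in 19.

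At 24 h, EPRS and IARS2 were higher and 9 genes were lower than at 0 h. EPRS had 226, 251 and 245 CPM, above its 186, 192 and 194 at 0 h (0.34, SE 0.0719, adjusted p = 0.00162). IARS2 had 197, 196 and 199 CPM, above its 146, 158 and 171 at 0 h (0.32, SE 0.0809, adjusted p = 0.00537). Both had long transcripts (5014 and 3560 bases), the length slope of the libraries was higher at 24 h than at 0 h, and the correction for length and GC content brought EPRS to 0.14 (adjusted p = 0.00602) and IARS2 to 0.21 (adjusted p = 0.0071). Both were called in all 27 alternatives. EARS2 and PARS2, which charge glutamate and proline in mitochondria as EPRS does in the cytosol, stood at -0.08 (adjusted p = 0.466) and 0.28 (adjusted p = 0.0905), and IARS at 0.25 (adjusted p = 0.0568). Without 0 h replicate 2 or 24 h replicate 1, 5 and 4 genes of the family were called higher in place of 2.

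The lower genes at 24 h included the most abundant members. TARS had 640, 597 and 646 CPM at 0 h and 536, 509.8 and 505 at 24 h (-0.28, SE 0.0547, adjusted p = 0.00083), and its 24 h libraries were the lowest 3 of all 17. HARS, for histidine, had 155, 164 and 155 CPM at 0 h and 141, 128 and 125 at 24 h (-0.27, SE 0.0595, adjusted p = 0.00197). FARSB had 99.1, 88.0 and 95.5 CPM at 0 h and 82.1, 80.1 and 74.0 at 24 h (-0.26, SE 0.0609, adjusted p = 0.0033). In these 3 genes every 24 h library lay below every 0 h library, and each was called in all 27 alternatives. KARS (-0.23, adjusted p = 0.00504) and GARS (-0.21, adjusted p = 0.00422), which supply both compartments, were lower too. In these bulk libraries fewer cells expressing a gene and less RNA per cell cannot be told apart.

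KARS kept its call in all 27 alternatives, and GARS lost it only when libraries were scaled by their totals (-0.14, adjusted p = 0.0518). The same scaling lost CARS (-0.18, adjusted p = 0.00889), MARS (-0.17, adjusted p = 0.0166), YARS (-0.17, adjusted p = 0.0144) and CARS2 (-0.28, adjusted p = 0.0216). CARS2, the mitochondrial cysteine enzyme, had 54.1, 53.1 and 45.4 CPM at 0 h and 44.5, 40.1 and 40.7 at 24 h. The ranges barely separated, and it was not called after the length and GC correction (-0.19, adjusted p = 0.0591) or without 0 h replicate 1 or 2 or 24 h replicate 2 or 3 (adjusted p 0.0728 to 0.0995). MARS was lost without 0 h replicate 2 or 24 h replicate 2 or 3 (adjusted p 0.0552 to 0.0836), and YARS without 24 h replicate 2 or 3 (0.0501 and 0.062). The partners TARS2 (0.07, adjusted p = 0.42), HARS2 (-0.03, adjusted p = 0.752) and FARS2 (-0.22, adjusted p = 0.108) were not called, and FARSA, the other subunit beside FARSB, stood at -0.11 (adjusted p = 0.154).

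**Figure D4:**
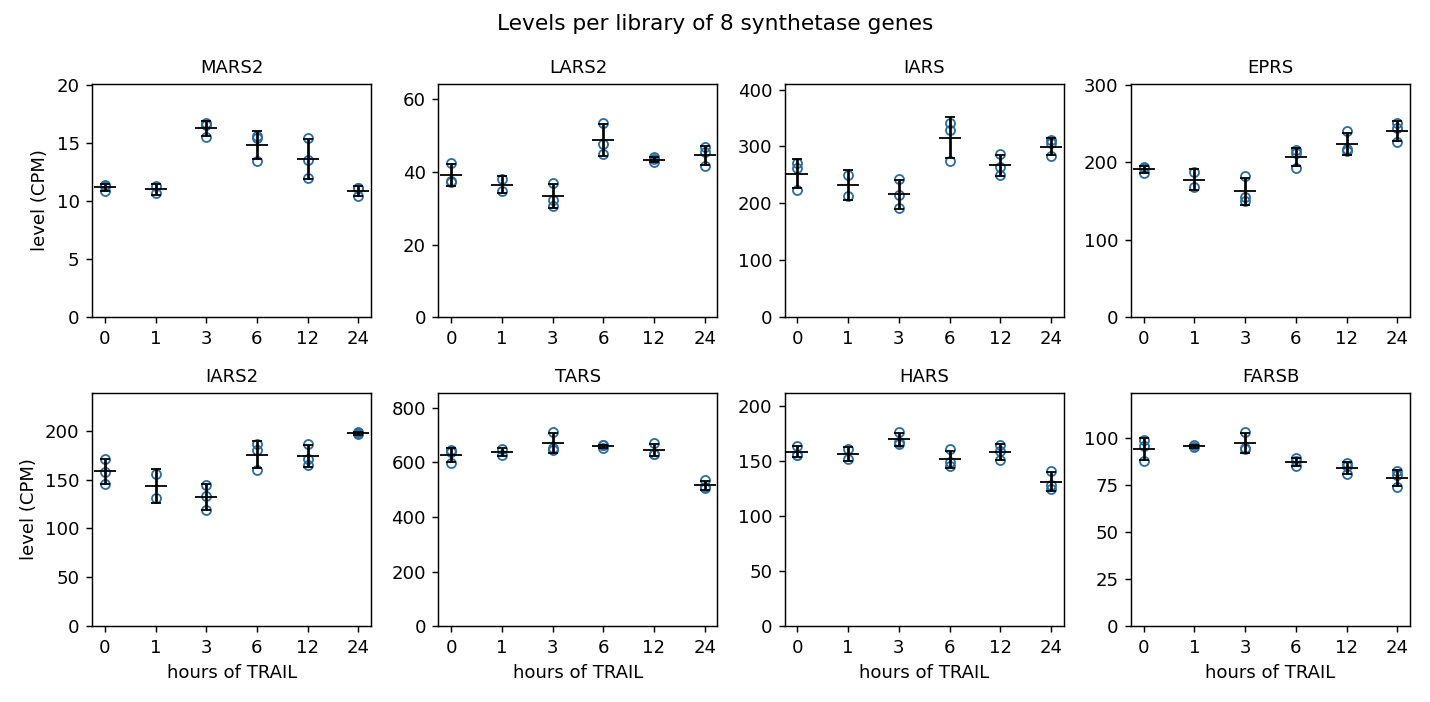
CPM per library (open circles) with the mean and SD (black, n = 3, or 2 at 1 h) of 8 synthetase genes over the hours of TRAIL; each vertical axis starts at 0 and has its own scale. MARS2 stands at 15.5 to 16.8 CPM at 3 h and 10.4 to 11.2 at 24 h, EPRS and IARS2 are lowest at 3 h and highest at 24 h, and TARS drops at 24 h.

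Most of the lower levels at 24 h were reached after 12 h. From 12 h to 24 h, 8 genes (22.2%) were called, beside 12% of all genes (6.42% higher and 5.6% lower), and all 8 were lower: CARS, GARS, HARS, KARS, MARS, TARS, HARS2 and MARS2. GARS had 317, 343 and 316 CPM at 12 h and 271, 253 and 255 at 24 h (-0.33, SE 0.0518, adjusted p = 0.000747). TARS moved by -0.32 (adjusted p = 0.00134) and CARS by -0.27 (adjusted p = 0.00206), and these 3 calls held in all 27 alternatives. The 24 h libraries of all 8 genes lay below those at 12 h. MARS2 returned to 11.2, 11.1 and 10.4 CPM (-0.32, adjusted p = 0.0352), its level at 0 h, although this call was lost in 8 alternatives. Without 12 h replicate 1, 24 h replicate 2 or 24 h replicate 3, 5, 5 and 4 genes were called lower. With replicates 2 and 3 averaged at 24 h, 3 were, and KARS (-0.25, adjusted p = 0.0572), HARS (-0.24, adjusted p = 0.0661), MARS, HARS2 and MARS2 (0.0754 to 0.131) were lost. From 6 h to 12 h, 4 genes (11.1%) were called, beside 20.6% of all genes (8.7% higher and 11.9% lower), with CARS higher (0.20) and VARS (-0.29), FARSA (-0.18) and YARS (-0.16) lower. VARS and CARS were called there in all 27 alternatives. From 1 h to 3 h, 2 (5.56%) were called, beside 5.73% (3.17% higher and 2.56% lower): MARS2, above, and PARS2 (0.61, SE 0.154, adjusted p = 0.0227), which had 5.13 and 4.33 CPM at 1 h and 7.79, 7.69 and 6.24 at 3 h and was lost without either 1 h library or 3 h replicate 1 or 2 (adjusted p 0.0731 to 0.17).

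Summed over the family, the shifts were small. The 20 cytosolic genes together made up 3966 ± 30.0 CPM in the 0 h libraries, 3861 ± 122 after 3 h and 4094 ± 59.9 after 6 h (SD, n = 3). They made up 4084 ± 116 CPM after 12 h and 3755 ± 44.8 after 24 h. The highest 24 h library, 3807 CPM, was below the lowest at 0 h, 3932 CPM, while the ranges at 3 h and 0 h overlapped. The 16 mitochondrial genes summed to 539 ± 9.6 CPM at 0 h and 564 ± 8.22 at 24 h, with every 24 h library above every 0 h library. This sum followed IARS2, which alone went from 146, 158 and 171 CPM to 197, 196 and 199. Only 5 of the 16 genes had a positive log2 fold change at 24 h, and the median was -0.04. This count changed with the processing. It was 9 of the 16 when libraries were scaled by their totals (median 0.04) and 8 after the length and GC correction (median -0.004). Relative to unscaled library totals, an alternative chosen after seeing the data, the cytosolic sums at 24 h (3940 to 3961) lay within the range at 0 h (3858 to 4020), so the lower cytosolic sum rests on the composition scaling. The mitochondrial sums were then 519.9 to 555.3 CPM at 0 h and 592.2 to 594.3 at 24 h, and IARS2 alone had 142.8 to 172.1 and 204.1 to 210.5. No test was made on these sums.

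Grouped by structure, the members of the multisynthetase complex moved in both directions. Of the 8 synthetase genes of the complex, EPRS was higher and KARS and MARS were lower at 24 h, beside 18% of all genes higher and 17.1% lower, with a median of 0.02. Of the 12 other cytosolic genes, 0 were higher and 6 lower, with a median of -0.15. Scaled by library totals, the complex had 3 higher and 1 lower (median 0.09) and the others 1 and 3 (-0.07), and after the length and GC correction 2 and 3 (-0.06) against 0 and 8 (-0.17). By catalytic class, 5 of the 10 cytosolic class II genes were lower at 24 h and all 10 had negative values, from -0.28 to -0.01, whereas 3 of the 9 class I genes were lower and 4 of them had positive values. These counts changed with the processing. Scaled by library totals, 4 class II genes were lower and 2 had positive values, and 3 class I genes were higher and 0 lower. After the length and GC correction 7 class II genes were lower, with FARSA (0.03) and SARS (0.05) positive, and 1 class I gene was higher and 4 lower. EPRS holds a catalytic domain of each class and was not counted in either. The class II transcripts were the shorter, with a median length of 2482 bases against 3092.

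The enzymes for 1 amino acid in the cytosol and in mitochondria were set side by side. Between 3 h and 6 h both isoleucine genes, IARS and IARS2, and both leucine genes, LARS and LARS2, were called higher. In the same interval SARS and YARS were called higher, and SARS2 and YARS2, for the same amino acids, lower. After the length and GC correction LARS (0.03, adjusted p = 0.5) and SARS2 (-0.14, adjusted p = 0.123) were not called there, so the leucine and serine patterns depend on the processing. CARS and CARS2 were both called lower at 24 h against 0 h, CARS2 not after the correction (-0.19, adjusted p = 0.0591). For methionine MARS2 was called higher at 3 h and 6 h, when MARS stood at 0.04 and 0.11 (0.12 and called at 6 h after the length and GC correction, adjusted p = 0.028), and MARS was called lower at 24 h, when MARS2 stood at -0.03. HARS and HARS2 lie head to head on chromosome 5 (140673904 to 140691862, minus strand, and 140691426 to 140699318, plus strand) and share 437 exonic bases on opposite strands. Their expected counts were not whole in 17 and 15 of the 17 libraries, which marks fragments divided between genes, so the values of this pair are uncertain. MARS and SARS2 had counts that were not whole in 17 libraries, VARS2 in 15, CARS2 in 14 and DARS in 9. SARS2 and VARS2 share 1492 and 1858 exonic bases with another annotated gene on the same strand, and the overlap of MARS with DDIT3 (355 bases) and of CARS2 with ING1 (326 bases) is on opposite strands. The strand setting of the counting is not given in the sources used here.

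Around the synthetases, the wider ATF4 amino acid response was mostly lower at 24 h. Of 30 genes on that list, 18 were lower and 2 higher at 24 h, beside 17.1% and 18% of all genes. Their median was -0.32 (-0.34 after the length and GC correction, with 18 lower and 1 higher). ATF4 itself fell by 0.57 (SE 0.0712, adjusted p = 1.44e-05), and ASNS, asparagine synthetase, by 0.65 (SE 0.0806, adjusted p = 1.44e-05). CHAC1, which degrades glutathione, fell by 1.44 (SE 0.157, adjusted p = 3.36e-06), NUPR1 by 1.23 and TRIB3, a pseudokinase of the same pathway, by 0.74. The 13 ATF4-responsive synthetases lay between -0.28 and 0.34 at the same time, with 5 called lower (TARS, GARS, CARS, MARS and YARS) and EPRS higher, and with 8 lower and 1 higher after the correction. Scaled by library totals, 1 of the 13 was lower and 3 were higher. DDIT4, an inhibitor of mTORC1, rose by 0.67 (adjusted p = 1.43e-06).

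Between 3 h and 6 h, when 8 of the 13 synthetases were higher, 11 of the 30 list genes were called higher and 5 lower (14 and 3 after the length and GC correction). Of all genes, 22.9% were higher and 20.3% lower without the correction. The higher ones included DDIT4 (0.91), CHAC1 (0.56), SESN2 (0.56) and SLC7A11 (0.48), the cystine carrier. ASNS (-0.21), DDIT3 (-0.36) and NUPR1 (-0.66) were lower. SLC7A5, a subunit of the carrier that brings in leucine and other large amino acids, was the most raised list gene at 6 h against 0 h (0.72, SE 0.0565, adjusted p = 3.8e-08).

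Among 12 genes of the partners and of tRNA handling, 0 were called higher and 5 lower at 24 h: AARSD1, an editing factor for mischarged alanine tRNA (-0.45), EEF1D (-0.41) and EEF1B2 (-0.26), subunits of the exchange factor for the elongation factor that delivers charged tRNAs, and the scaffolds AIMP2 (-0.36) and EEF1E1 (-0.28). The third scaffold, AIMP1, stood at -0.17 (adjusted p = 0.0629). Of all genes, 18% were higher and 17.1% lower at 24 h. XPOT, which exports tRNAs from the nucleus, rose by 0.38 between 3 h and 6 h (adjusted p = 0.000551), when 6 genes of the list were lower, beside 20.3% of all genes.

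The mitochondrial side did not move as a unit. Of 13 other genes of mitochondrial translation, 2 were higher and 1 lower at 24 h, beside 18% and 17.1% of all genes, with a median of -0.03. Of the 13 mRNAs of the mitochondrial genome, which the 16 mitochondrial synthetases serve, 12 were called lower against 0 h after 24 h (median -0.85). All 13 were called lower between 3 h and 6 h (median -0.99). These mRNAs are short, with a median of 784 bases against 2803 for all genes tested. In both comparisons the later libraries had the higher length slope, which goes with relatively fewer counts from short transcripts. The part of length, GC content or scaling in the fall of these mRNAs was not tested. The mitochondrial synthetases gave 1 higher and 1 lower of 16 at 24 h against 0 h, and 2 higher and 5 lower between 3 h and 6 h. In the latter interval 22.9% of all genes were higher and 20.3% lower. Scaled by library totals, these synthetases gave 4 higher and 0 lower at 24 h, and 3 and 5 between 3 h and 6 h. After the length and GC correction they gave 2 and 0, and 4 and 4. The shares of all genes in these 2 settings are not set beside them. Of 16 interferon-responsive genes, 11 were higher and 0 lower at 24 h (median 0.33), among them CXCL10 (3.23), IFIT2 (0.83) and IFIT1 (0.75). WARS was not called there (0.10, adjusted p = 0.187), and it was called at 12 h, when 4 of the 16 were higher, beside 5.96% of all genes.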

How the data were processed

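Per the labels' protocols, stranded mRNA libraries were made and sequenced from both ends. The authors deposited 1 table of RSEM expected counts (estimated fragments per gene), which are neither depth- nor length-scaled. The submitters' processing notes name cutadapt 1.18, STAR 2.7.0f and hg38. The annotation release and strand setting are not given in the sources used here. Expected counts were rounded. Genes were filtered by filterByExpr and scaled by TMM (factors 0.939 to 1.06), and all 17 libraries entered 1 quasi-likelihood fit with a coefficient for each time (edgeR 4.0.16, R 4.3.3, robust estimation). P-values were adjusted by Benjamini-Hochberg over 15365 genes and called below 0.05. Levels are CPM over the scaled total, with SD between libraries. Length, GC content and positions are those of the transcript with the longest coding sequence in GENCODE 29.

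The members and lists were chosen with earlier results of these data known. For each time against 0 h, up to 4 called members with the highest and up to 4 with the lowest log2 fold change were named with their partners, and up to 4 called genes of each list with the largest change; other genes were named after their values were seen. Alternatives were RLE scaling, library totals, no filter, DESeq2 1.42.0, a minimum mean count of 10, fits of only the 2 groups compared, a replicate block, a correction of each library by splines (4 degrees of freedom) on length and GC content, both together, replicates 2 and 3 averaged at 6 h and 24 h, and each library left out. Replicate numbers did not pair the libraries. The script was tested on simulated counts for 6 h against 0 h, with 50 genes changed by each fold. It called 14 of them at 1.2-fold, 45 at 1.5-fold, 49 at 2-fold and 48 at 0.5-fold. A gene not called may therefore still have changed by about 1.2-fold.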

Additional observations from a re-analysis of the deposited data

Results flagged for a closer look

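The following differences between times stood out because a gene was called in opposite directions against 0 h at 2 times, and the difference between those times was itself called. Genes picked by opposite calls against 0 h are already likely to differ between those times. The adjusted p-values of the differences are therefore a description and not separate evidence. EPRS was lower at 3 h and higher at 12 h and 24 h, and the log2 differences from 3 h were 0.46 at 12 h (SE 0.0725, adjusted p = 8.22e-05) and 0.57 at 24 h (SE 0.0726, adjusted p = 3.37e-06). IARS2 was lower at 3 h and higher at 24 h, with a difference of 0.58 (SE 0.0818, adjusted p = 1.03e-05). WARS was lower at 3 h and higher at 12 h, with a difference of 0.40 (SE 0.0582, adjusted p = 4e-05). YARS was higher at 6 h and lower at 24 h, with a difference of -0.30 (SE 0.0496, adjusted p = 0.000169). Most of the calls against 0 h behind these differences were unstable. Of the 27 alternatives, 14 lost that of YARS at 6 h, 9 that of EPRS at 12 h and 8 that of WARS at 12 h. That of YARS at 24 h was lost in 5, and those of EPRS, IARS2 and WARS at 3 h in 4 each. The calls of EPRS and IARS2 at 24 h held in all 27. The libraries' slope on transcript length also differed between 3 h (-0.096) and 24 h (0.094). After the length and GC correction EPRS stood at -0.17 at 3 h, 0.12 at 12 h and 0.14 at 24 h against 0 h. IARS2 then stood at -0.22 at 3 h and 0.21 at 24 h, and WARS at -0.19 at 3 h and 0.19 at 12 h. YARS stood at 0.13 at 6 h and -0.17 at 24 h, and all of these values were called. The differences between the later times themselves were not tested with the correction.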

How the results depend on the processing

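All 63 calls of single genes over the 9 comparisons kept their sign in each of the 27 alternatives (17 leaving out 1 library, 10 others), and 24 of them stayed called in every one. Several counts were less stable. Scaling by library totals gave 10 lower at 3 h, 0 lower at 12 h, 8 higher with 4 lower at 24 h, and 5 higher with 1 lower at 12 h against 6 h; for 6 h against 3 h it gave 13 higher and 6 lower. RLE scaling gave 0 lower at 12 h. No filter gave 2 higher and 10 lower at 3 h, 1 lower at 6 h, and 2 higher with 0 lower at 12 h. A mean count of at least 10 and DESeq2 each gave 2 higher at 12 h against 6 h. Fits of only the 2 groups compared gave 0 lower at 12 h, 1 higher at 3 h against 1 h, and 3 higher and 1 lower at 12 h against 6 h.

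The length and GC correction gave 4 higher at 3 h, 8 higher at 6 h, 2 lower at 12 h, 4 higher at 24 h, 1 lower at 3 h against 1 h, and 5 higher and 5 lower at 12 h against 6 h. Averaging replicates 2 and 3 at 6 h and 24 h, the pairs that differed least, gave 2 higher and 0 lower at 6 h, 1 higher and 0 lower at 12 h, 4 lower at 6 h against 3 h, 1 lower at 12 h against 6 h, and 3 lower at 24 h against 12 h. With 1 library left out, the counts ran, for higher and lower, over 1 to 2 and 2 to 8 at 3 h, 1 to 6 and 0 to 4 at 6 h, 0 to 5 and 0 to 1 at 12 h, and 2 to 5 and 6 to 10 at 24 h. Between neighbouring times they ran over 0 to 2 and 0 to 1 (3 h against 1 h), 8 to 10 and 4 to 9 (6 h against 3 h), 1 to 3 and 1 to 3 (12 h against 6 h), and 0 to 0 and 4 to 9 (24 h against 12 h). At 1 h all 27 alternatives gave 0. Over all times together 21 to 31 genes were called. Where 1 h kept a single library, it was assumed to vary like the other times.

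The replicate numbers did not pair the libraries: same-numbered libraries correlated at -0.159 to 0.178 after removal of the group means, and 7 of 17 libraries correlated best with their own number. A replicate block gave 2 higher at 3 h and moved no other count by over 1.5 times, and the block with the length and GC correction gave 4 higher at 3 h, 8 higher at 6 h, 2 lower at 12 h, 3 lower at 3 h against 1 h, 5 higher and 5 lower at 12 h against 6 h, and 1 higher at 24 h against 12 h. PARS2, with 65 to 142 counts per library, had the least depth.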
